A study of Mus musculus with 2 samples.

Results

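The CTCF map was read around 6 genes that act as oncogenes in T cell leukaemia: Tal1, Lmo2, Lyl1, Tlx1, Spi1 and Myc. Touching bins of the deposited track were joined into regions. A region was kept when its centre lay within 250 kb of the gene's position on mouse build mm9, or within 1000 kb for Myc. This gave 181 regions of the 53551 in the whole map, or 0.338%. By locus there were 23 at Tal1, 16 at Lmo2, 53 at Lyl1, 44 at Tlx1, 28 at Spi1 and 17 at Myc. The gene positions are approximate mm9 positions rounded to 10 kb and were not read from an annotation. A distance is therefore known to about 5 kb at best, and the side of a region within 10 kb of a position is uncertain.

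CTCF was precipitated from double-negative (DN) thymocytes, early thymic T cell progenitors without surface CD4 or CD8. They came from C57BL/6 mice, aged 4 to 8 weeks, that lack Rag1 and so cannot rearrange their antigen receptor genes. The second library, an input control, carries the same genotype and was not analysed here. The number of animals behind the library is not given in the sources used here. With 1 library and no replicate, no test between conditions was possible. The track lists 825544 bins of 25 bp by position alone, with no height, so depth is unknown and width was the sole measure of a region's size. It holds no RNA, and the cell type was not checked against markers.

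CTCF is a zinc-finger protein that sits at insulators and loop anchors, where it can keep an enhancer from reaching a promoter. Tal1 and Lyl1 encode related basic helix-loop-helix factors, and Lmo2 encodes a LIM-domain adaptor that joins such factors in DNA-binding complexes. Tlx1 encodes a homeobox factor, Spi1 the ETS-family factor PU.1, and Myc a basic helix-loop-helix factor that drives growth. In human T cell leukaemia several of these genes are switched on by deletions or translocations that place them beside foreign regulatory elements. Spi1 is a gene of early progenitors and of myeloid and B cells that is normally shut off as T cells commit.

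RefSeq promoter sequences were at hand for Tal1, Lyl1 and Tlx1. Lmo2, Spi1 and Myc had no entry. Those of Lyl1 and Tlx1 are printed because the 2 positions, as given, differed most plainly in their surroundings. There were 6 CTCF regions within 10 kb of Lyl1 and none within 15 kb of Tlx1. The contrast is not firm, since a region would lie 5.885 kb from a Tlx1 position 10 kb higher. Each line holds the 250 bases before the transcript start on the plus strand of GRCm38.p6, a later build than the track's. Capitals were reserved for a match to the CTCF core motif, and no base qualified.

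Lyl1, chr8:84701207-84701456: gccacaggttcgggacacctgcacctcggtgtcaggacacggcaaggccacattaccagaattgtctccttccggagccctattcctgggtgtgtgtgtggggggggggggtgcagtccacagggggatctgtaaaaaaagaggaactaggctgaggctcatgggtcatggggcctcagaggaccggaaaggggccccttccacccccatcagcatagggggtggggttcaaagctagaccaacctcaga

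Tlx1, chr19:45150465-45150714: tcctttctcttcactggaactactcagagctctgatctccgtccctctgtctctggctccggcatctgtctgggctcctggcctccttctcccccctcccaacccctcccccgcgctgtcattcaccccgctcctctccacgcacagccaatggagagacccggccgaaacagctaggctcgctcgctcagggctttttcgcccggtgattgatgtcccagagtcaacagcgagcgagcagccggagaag

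The motif searched was CCA, any 2 bases, AG, any 2 bases and GGC, on both strands, over windows of 300 bases that reach 50 bases past the start. It occurred in 0 of the 4 promoters listed for Tal1, Lyl1 and Tlx1, and in 797 of 32851 promoters in the table (2.43%). These promoters could not be placed on the mm9 map, and no sequence was read at the CTCF regions themselves.

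The 6 loci differed widely in how many CTCF regions they held. Lyl1 stood first with 53 regions, a density of 106 per Mb (95% interval by the exact Poisson method, 79.4 to 139). Tlx1 followed with 88.0 per Mb (63.9 to 118), then Spi1 with 56.0 (37.2 to 80.9), Tal1 with 46.0 (29.2 to 69.0) and Lmo2 with 32.0 (18.3 to 52.0). Myc had 8.50 regions per Mb (4.95 to 13.6) over its 2 Mb window. Each neighbouring pair in this order had overlapping intervals, except Lmo2 and Myc. Within the same 250 kb on each side Myc held 6 regions (2.20 to 13.1), which overlapped the interval of Lmo2's 16 (9.15 to 26.0). These intervals cover counting error only, and regions that cluster make the true error larger.

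**Figure D1:**
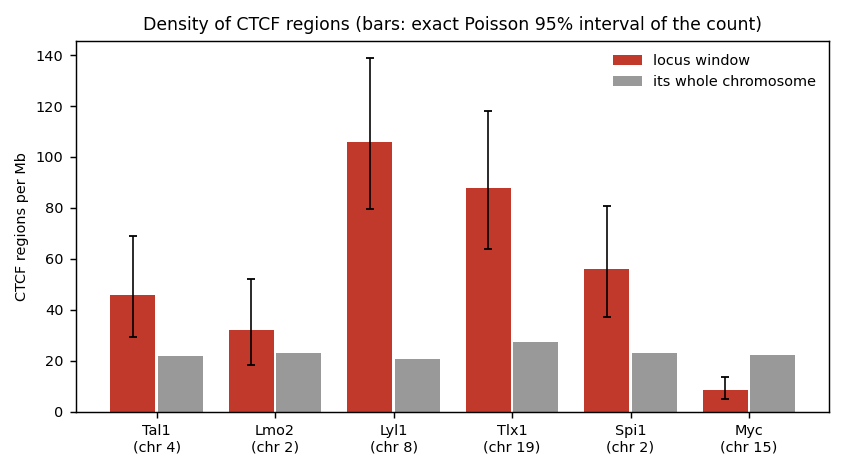
CTCF regions per Mb (vertical axis) in the window of each gene (red, with the exact Poisson 95% interval of the count) and over its whole chromosome (grey). Lyl1 at 106 and Tlx1 at 88.0 stand highest, and Myc at 8.50 is the one locus below its chromosome.

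Against their own chromosomes, 5 loci were denser and Myc was sparser. Lyl1 had 5.09 times the density of chromosome 8 (3.81 to 6.66), and Tlx1 3.2 times that of chromosome 19 (2.32 to 4.29). Both Spi1 and Lmo2 lie on chromosome 2, with ratios of 2.42 (1.61 to 3.498) and 1.38 (0.790 to 2.25). The interval of Lmo2 included 1. At Myc the ratio to chromosome 15 was 0.383 (0.223 to 0.614).

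The ratio at Tal1, 2.09 times chromosome 4 (1.32 to 3.13), changed most when close regions were joined. Joining regions up to 200 bp apart left 14 of its 23 regions, and leaving out those of 100 bp or less left 13. After joining, the ratio was 1.43 (0.781 to 2.40), an interval that includes 1. The same joining gave 5.16 at Lyl1, 2.87 at Tlx1, 2.23 at Spi1, 1.45 at Lmo2 and 0.433 at Myc.

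The autosomes were also cut into 4792 windows of 500 kb, which held a median of 8 regions (quartiles 2 and 16). Fewer regions than at Lyl1 were found in 99.7% of these windows, and fewer than at Tlx1 in 98.9%. The corresponding shares were 91.7% for Spi1, 86.3% for Tal1 and 73.3% for Lmo2. Myc, with 6 regions within 250 kb, exceeded 40.6% of them. Of 1185 windows of 2000 kb, with a median of 36 regions, 22.95% held fewer than the 17 at Myc. The windows were not chosen to hold a gene, so these ranks describe the loci and test nothing.

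**Figure D2:**
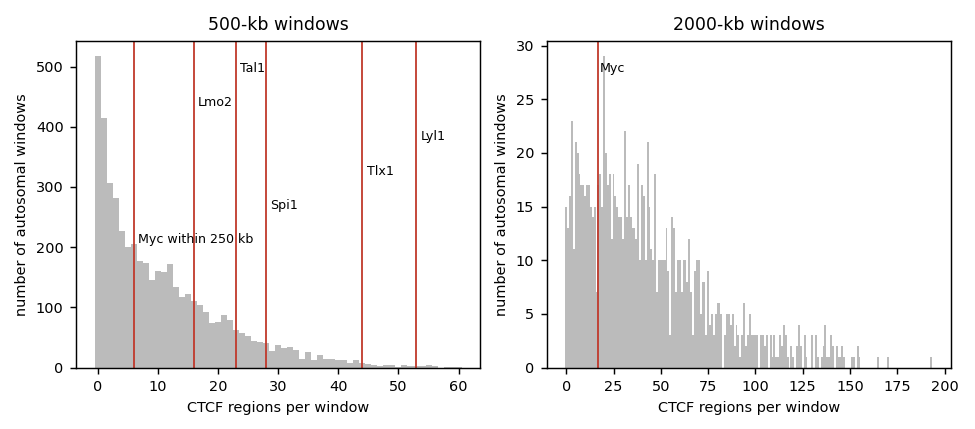
Number of autosomal windows (vertical axis) by CTCF regions per window (horizontal axis), for windows of 500 kb (left) and 2000 kb (right), with red lines at the 6 loci. Lyl1 (53) and Tlx1 (44) lie in the far right tail. Myc lies near the middle of the 500-kb windows, with 6 regions against a median of 8 (quartiles 2 and 16). Among the 2000-kb windows it lies just under the lower quartile, with 17 against 18.

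Width set the loci apart less clearly than number. Over all 181 members 87 were wide, meaning 500 bp or more. That was 48.1% (exact 95% interval 40.6 to 55.6%), against 46.8% of autosomal regions. The share was 62.5% at Lmo2 (35.4 to 84.8%), 56.8% at Tlx1 (41.03 to 71.7%), 47.2% at Lyl1 (33.3 to 61.4%), 43.5% at Tal1 (23.2 to 65.5%), 41.2% at Myc (18.4 to 67.1%) and 35.7% at Spi1 (18.6 to 55.9%). All 6 intervals included the autosomal share. Narrow regions, those of at most 100 bp, formed 21.0% of members (15.3 to 27.7%) and 22.4% of autosomal regions. Tal1 held 10 such regions among its 23, or 43.5% (23.2 to 65.5%), whereas Lmo2 held 1 among 16.

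**Figure D3:**
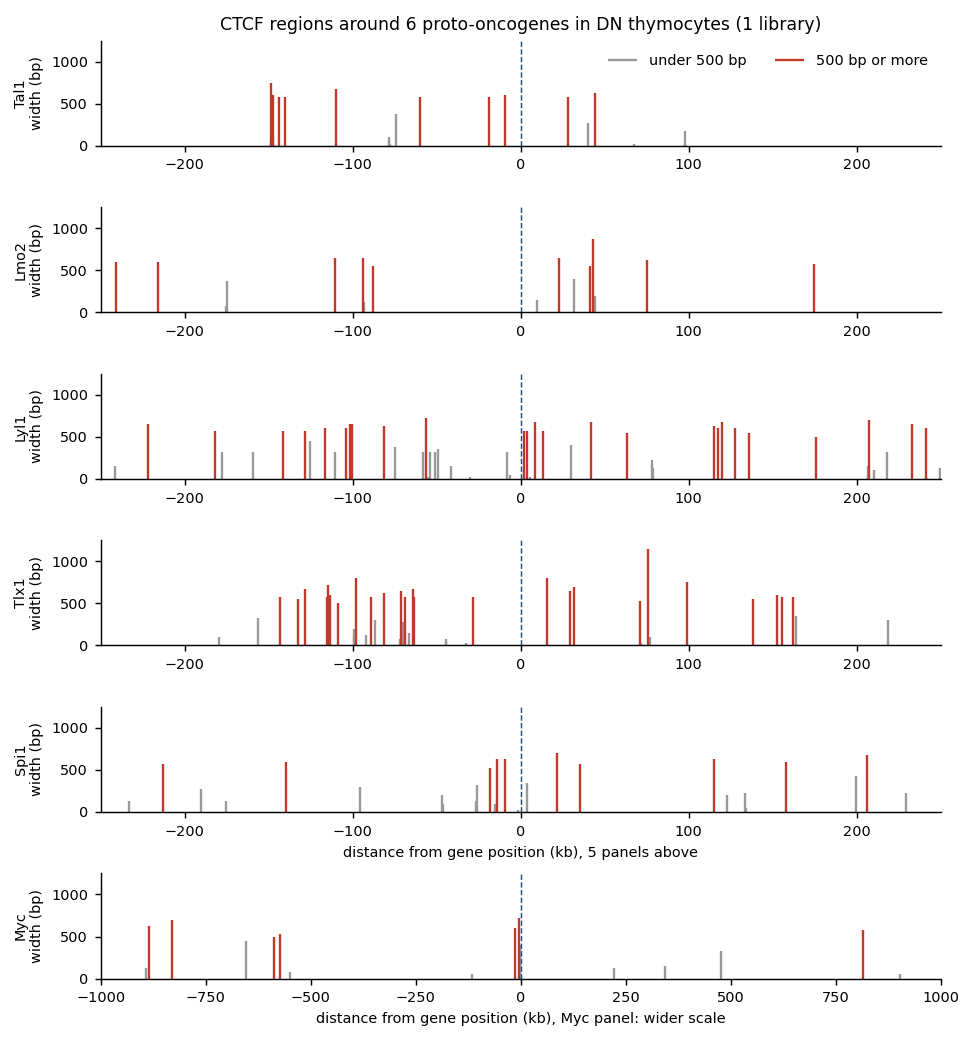
Each vertical line is a CTCF region, placed by its distance in kb from the gene position (dashed line) and as tall as its width in bp, with regions of 500 bp or more in red. The Myc panel spans 1000 kb on each side and the others 250 kb. Lyl1 and Tlx1 are filled on both sides, and Myc is empty for 221.5 kb on its right.

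Tal1, at 114.73 Mb on chromosome 4, had 17 regions below it, toward lower coordinates, and 6 above it. In the gene table Stil lies next to it on the lower side and Pdzk1ip1 on the higher side. The nearest region on the lower side was also wide, 600 bp at 114720211 to 114720810, and lay 9.49 kb away. A further wide region of 575 bp stood 19.0 kb away on that side. Toward higher coordinates the nearest region, at 114758061 to 114758635, measured 575 bp and lay 28.3 kb away. The position as given fell in a stretch of 37.2 kb free of listed regions and closed by a wide region at each end. With the position 10 kb lower, the 600-bp region would lie 0.510 kb above it instead.

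On the lower side of Tal1 9 regions were packed into 9 kb, from 114581136 to 114590135. They lay 140 to 149 kb away and included the widest of the locus, 750 bp. Of the 9, 5 were 100 bp or less, and joining across 200 bp left 3. On the higher side the last region lay 97.7 kb from the gene, and the next was 311 kb away, beyond a gap of 213 kb. The share of regions on the higher side was 26.1% (exact 95% interval 10.2 to 48.4%), and 35.7% after joining.

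Lmo2, at 103.80 Mb on chromosome 2, had 8 regions on each side, with 5 wide regions in each set of 8. Caprin1 is its neighbour toward lower coordinates. The regions were arranged differently on the 2 sides. On the lower side none was listed within 87.8 kb, where a wide region of 550 bp lay at 103711974 to 103712523. Toward higher coordinates 7 of the 8 regions fell within 100 kb. The nearest of these measured 150 bp at 9.72 kb, so that its side is uncertain, and the nearest wide one measured 650 bp at 103822249 to 103822898, 22.6 kb away. The widest region of the locus, 875 bp, lay 42.9 kb away on the same side. The free stretch that holds the position was 97.1 kb long. The median gap over the autosomes was 14.4 kb. A long gap is more likely than a short one to hold any given position, so this is not a like comparison. Within 100 kb on each side the density rose to 50.0 per Mb, and the wider window gave 32.0.

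Lyl1, at 87.22 Mb on chromosome 8, had 26 regions on the lower side and 27 on the higher side. It lies between Trmt1 and Nfix, the latter encoding a nuclear factor I protein. Within 10 kb there were 6 regions, and 3 of them were wide. The nearest, of 575 bp at 87221449 to 87222023, lay 1.74 kb from the position, and another of 575 bp lay 3.79 kb away. Both distances are below the error of the position, so they show only that wide regions lie at or beside the gene.

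The sides of Lyl1 were close in number, and their wide regions could not be split reliably. Up to 100 kb from the position as given, 2 of 13 regions toward lower coordinates and 6 of 10 toward higher coordinates were wide. With the position 10 kb higher these became 5 of 17 and 3 of 6, and with it 10 kb lower 5 of 14 and 6 of 12. The nearest wide region on the lower side lay 56.6 kb from the position as given and 1.54 kb from one 10 kb higher. A stretch of 9.03 kb on the lower side, from 87161949 to 87170973, held 7 regions, of which 1 was wide. That 1 was the widest of the locus, at 725 bp.

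Tlx1, at 45.22 Mb on chromosome 19, had 29 regions on the lower side and 15 on the higher side. Kazald1 precedes it and Lbx1, another homeobox gene, follows it. Although the locus was dense, no region lay within 15 kb of the position. The stretch around it was free for 43.8 kb, between a wide region of 575 bp at 45191161 to 45191735 and one of 800 bp at 45235486 to 45236285. These were 28.6 and 15.9 kb away. With the position 10 kb higher, the 800-bp region would lie 5.885 kb away. With it 10 kb lower, the nearest wide region would lie 18.55 kb away. The share on the higher side was 34.1% (exact 95% interval 20.5 to 49.9%), and 38.7% once regions within 1000 bp were joined.

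Much of the density at Tlx1 came from the band 50 to 100 kb below the gene, which held 16 regions, against 5 in the same band above it. Within that band 9 regions, 4 of them wide, were packed into 8.93 kb from 45148136 to 45157060. Joining across 200 bp left 5 of these. A 10-kb stretch with at least 9 regions began at 12 of the 52254 autosomal regions (0.0230%), and the 2 stretches at Tal1 and Tlx1 are among them. Each stretch was picked as the densest of its locus, so the share for single starts is not a like comparison. The densest stretch at Lyl1 held 7 regions, a count reached at 0.1895% of starts. At Spi1 it held 4 (5.03%), and at Lmo2 and Myc 3 (14.75%). These shares count regions before joining, and none was computed after it. The widest of all 181 members, 1150 bp at 45294886 to 45296035, lay 75.5 kb above Tlx1. Within 100 kb on each side the density was 140 per Mb, and 88.0 over the full window.

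Spi1, at 90.92 Mb on chromosome 2, had 16 regions on the lower side, where Slc39a13 is the next gene, and 12 on the higher side, where Mybpc3 follows. The nearest regions on either side were not wide. They measured 25 bp at 1.54 kb and 350 bp at 3.85 kb, both inside the error of the position. The nearest wide region, 625 bp at 90910424 to 90911048, lay 9.26 kb below, and 2 more wide regions followed at 14.2 and 18.6 kb. On the higher side the nearest wide region was also the widest of the locus, 700 bp at 90941424 to 90942123, and lay 21.8 kb away. Of the 14 regions within 100 kb, 11 were on the lower side and 3 on the higher. Beyond 100 kb the order was the opposite, with 5 on the lower side and 9 on the higher. The totals of the 2 sides were therefore closer than their arrangement. With the position 10 kb lower, the totals were 14 and 14, with 9 and 5 within 100 kb. The 625-bp region would then lie 0.7355 kb above it. With the position 10 kb higher, the totals were 17 and 11, with 11 and 2 within 100 kb.

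Myc, at 61.82 Mb on chromosome 15, had 12 regions on the lower side and 5 on the higher side within 1000 kb. Of these, 4 formed a group beside the gene. They measured 600, 725, 400 and 400 bp and lay 13.2, 5.13, 2.85 and 1.45 kb below the position. The nearest 3 span 61814505 to 61818754, so their side cannot be told from a rounded position. The group of 4 accounts for a density of 20.0 per Mb within 100 kb on each side, against 8.50 over the whole window.

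Around this group the map was nearly bare. On the lower side 1 region of 50 bp lay 115 kb away, and beyond it no region was listed for 433 kb, from 61271505 to 61704804. On the higher side the nearest region was 125 bp wide and 221.5 kb away. The next 2 measured 150 and 325 bp, at 343 and 477 kb, and the nearest wide region on that side lay 814.5 kb away, at 62634255 to 62634829. The gap from the group to the first region above was 222.7 kb. Over the autosomes 9.94% of gaps exceeded 100 kb and 1.55% exceeded 400 kb. These shares count every gap alike, whereas a gap that holds a given position tends to be long. They therefore do not rank the gap at Myc. Wide regions numbered 6 on the lower side and 1 on the higher, or 5 and 2 with the position 10 kb lower, since the 725-bp region would then lie 4.87 kb above it. The share of regions on the higher side was 29.4% (exact 95% interval 10.3 to 56.0%) and became 47.1% with the position 10 kb lower, because 3 regions then changed side.

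**Figure D4:**
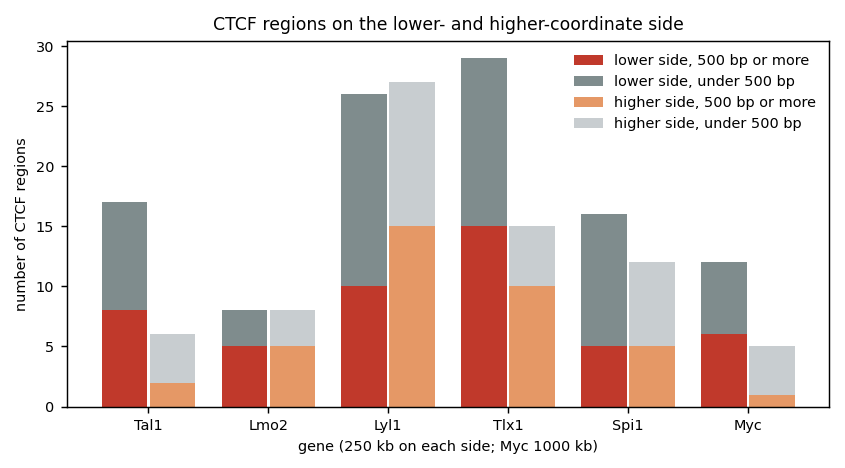
Number of CTCF regions (vertical axis) on the lower- and higher-coordinate side of each gene, split at a width of 500 bp. With the positions as given, Lmo2 (8 and 8) and Lyl1 (26 and 27) are even or nearly so. Tal1 (17 and 6), Tlx1 (29 and 15), Spi1 (16 and 12) and Myc (12 and 5) have more on the lower side. With the position 10 kb lower, the counts become 9 and 8 at Myc and 14 and 14 at Spi1. With the position 10 kb higher, those at Lyl1 become 29 and 23.

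Uneven sides were common in the map at large. Among the 2146 autosomal windows of 500 kb with at least 10 regions, the fuller side held a median of 62.0% of regions (quartiles 56.0 and 71.9%). The fuller side held 73.9% at Tal1, and 20.8% of the windows were at least as uneven. For Tlx1, with 65.9%, the share of windows was 38.9%, and for Spi1, with 57.1%, it was 71.6%. The windows were not matched to the loci in number of regions, and small counts split unevenly more often. Only 1.06% of all 500-kb windows held as many regions as the 44 at Tlx1. Its share therefore does not show how common such a split is at that count. At Myc the fuller side held 70.6%, and 36.2% of the 1014 windows of 2000 kb with at least 10 regions were as uneven.

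With the positions as given, a wide region lay within 23 kb of each of the 6 genes on at least 1 side. That limit was set by the largest of the 6 distances, so all 6 meet it by construction. With the position 10 kb lower, the distance at Lmo2 became 32.57 kb. The smaller of the 2 distances was 1.74 kb at Lyl1, 5.13 kb at Myc, 9.26 kb at Spi1, 9.49 kb at Tal1, 15.9 kb at Tlx1 and 22.6 kb at Lmo2. Given the rounding of positions, no neighbouring pair in this order can be told apart. From the midpoints of the 4792 windows of 500 kb, the nearest wide region lay at a median of 63.0 kb (quartiles 18.8 and 232.5 kb). It lay at least as near as at Lmo2 for 28.7% of these midpoints, and as near as at Tlx1 for 22.1%. Midpoints are not gene positions, so this is a description of the map. The larger of the 2 distances was 87.8 kb at Lmo2 and 28.6 kb at Tlx1. It stayed between 77.8 and 97.8 kb and between 25.9 and 38.55 kb when the position was moved by 10 kb either way. At Tlx1 the nearer side changed. With the position 10 kb lower the distances there were 18.55 kb on the lower side and 25.9 kb on the higher side. At the other loci the larger distance depended on wide regions whose side is uncertain. It was 814.5 kb at Myc and 4.87 kb with the position 10 kb lower, and 56.6 kb at Lyl1 and 3.24 kb with the position 10 kb higher. Moving the position 10 kb lower also took it from 28.3 to 9.002 kb at Tal1 and from 21.8 to 4.165 kb at Spi1.

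**Figure D5:**
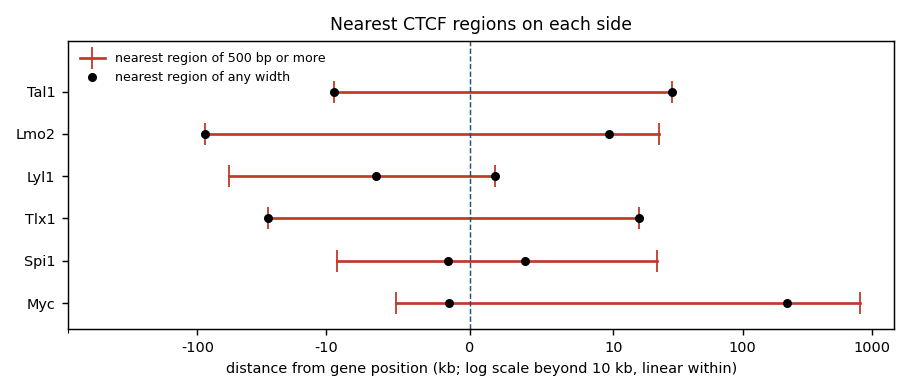
Distance in kb from each gene position to the nearest CTCF region of any width (black points) and to the nearest region of 500 bp or more (red ticks joined by a line), on the lower side (negative) and higher side. The axis is linear within 10 kb and logarithmic beyond. Positions are as given, to 10 kb, so points within 10 kb of 0 may lie on either side. The line for Myc reaches 814.5 kb.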

How the data were processed

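CTCF ChIP-seq of DN thymocytes was deposited as a browser track of positions. The authors used Bowtie and build mm9, per the submitters' processing notes. No source used here gives the peak caller, threshold, filters or use of the input, so weak binding below the threshold cannot be seen. Touching 25-bp bins were joined, and regions were assigned to windows by their centre. Coordinates are 1-based. Density used the window length for loci and the span from first to last region for chromosomes. Intervals were exact Poisson or exact binomial (Clopper-Pearson), at 95%. All genes in the list were named, each with its nearest and widest regions. Neighbouring protein-coding genes came from the order of genes in the RefSeq table of GRCm38, and coordinates were not converted. Joining was tested on simulated data, in which 6000 of 6000 regions were recovered. Members, lists and cut-offs were chosen with earlier results of these data known. The 10-kb stretches were described after their values were seen. Python 3.11.15, numpy 2.4.6, pandas 2.3.3, scipy 1.17.1 and matplotlib 3.10.9 were used.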

Additional observations from a re-analysis of the deposited data

How the results depend on the processing

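Density, the share on the higher side, the distance to the nearest wide region and the share of wide regions were recomputed at each locus with other joining, positions, windows and width limits. Of 150 alternative values for 24 results, 141 stayed within 1.5 times the density, the counting interval of a share or 10 kb of a distance, and 9 moved. No share on the higher side whose interval lay wholly below or above 50% crossed it. Only Tal1 and Tlx1 had such an interval. It treats regions as independent although they cluster. With joining within 1000 bp the shares were 35.7% and 38.7%, and no interval was computed for them, so an even split is not excluded. At Lyl1, where the interval included 50%, the share went from 50.9% to 45.8% with joining within 200 bp and 44.2% with the position 10 kb higher. A shift of the position by 10 kb cannot move the distance to the nearest wide region, whatever its side, beyond that limit. Taken by side, a comparison added after seeing the data, 4 of 24 distances moved. For Tal1 the density of 46.0 per Mb became 28.0 with joining within 200 bp or within 1000 bp and 26.0 without regions of 100 bp or less. In windows of 100 kb on each side it became 50.0 at Lmo2, 140 at Tlx1 and 20.0 at Myc. With wide set at 600 bp or more, a stricter limit by construction, the share of wide regions became 21.7% at Tal1, 30.2% at Lyl1 and 29.55% at Tlx1. The cause of the other moves was not tested. Depth is not recorded in the track, so the number of weaker sites left out is not known. No paired analysis was possible because the track comes from a single library.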

Other observations

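Among widths over 100 bp and up to the median of 425 bp, the most frequent in the map was 325 bp. Regions of exactly 325 bp were unevenly spread over the loci. Lyl1 held 8 of them among 53 regions, or 15.1% (exact 95% interval 6.75 to 27.6%), against 4.95% of autosomal regions. The other 5 loci together held 3, with 1 each at Tlx1, Spi1 and Myc and 0 at Tal1 and Lmo2. At Lyl1, 3 of the 8 lay in the stretch of 9.03 kb that begins 57.9 kb below the gene. This width was singled out after its values were seen.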
